A study of Homo sapiens with 9 samples.

Results

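The genes described here are the SR proteins and the heterogeneous nuclear ribonucleoproteins (hnRNPs), the 2 large families of RNA-binding proteins that steer the splicing of messenger RNA. They were taken by name from the platform annotation as every gene whose symbol starts with SRSF and a number or with HNRNP, pseudogenes left out, and all probe sets annotated to 1 such gene alone were kept. This gave 30 genes on 116 probe sets, of 19775 genes and 54613 probe sets in all. There were 10 SR protein genes on 43 probe sets, 19 hnRNP genes on 72 probe sets, and HNRNPD-DT, a noncoding transcript divergent from HNRNPD, on 1. A further 14 probe sets name an SRSF or HNRNP gene together with other genes and are not members. They include the probe sets of SRSF2 and are described at the end.

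The cells were BL2, an established line from a Burkitt lymphoma and thus a single transformed germinal centre B cell clone, grown in RPMI with fetal calf serum. They were treated for 6 hrs with recombinant human CD40L, the ligand of the CD40 receptor, or for 6 hrs with LPS, a bacterial ligand of a Toll-like receptor, or were left untreated as control. Each condition has 3 arrays, 1 from each of 3 batches, which the labels number as biological replicates, so 9 arrays in all. Expression was measured on a 3′ IVT Affymetrix array, on which a gene is read by 1 or more probe sets and each level is a generalised log2 value.

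SR proteins carry domains rich in arginine and serine, bind exonic enhancers in nascent transcripts and recruit the spliceosome to nearby splice sites. The hnRNPs coat nascent transcripts, and many of them act as repressors that compete with SR proteins for the choice of a splice site, besides roles in the stability and translation of mRNA. Many genes of both families control their own amount through alternative exons or retained introns that send part of the transcript to nonsense-mediated decay, so that a gene can make several kinds of transcript, and a probe set reads only those that hold its target. In lymphocytes the pair of families is best known for the alternative exons of the CD45 phosphatase, which HNRNPL and HNRNPLL repress.

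Array medians lay between 6.42 and 6.47, and replicate arrays of a condition correlated at 0.994 to 0.997. Deviations from the group means ran together in arrays of the same batch, with a correlation above 0.1 in 7 of 9 pairs. Both exceptions involved control replicate 2, at -0.18 with CD40L replicate 2 and -0.04 with LPS replicate 2. That array ran closer to batch 3, at 0.38 with CD40L replicate 3 and 0.32 with LPS replicate 3, and control replicate 1 correlated at 0.29 with both CD40L replicate 1 and CD40L replicate 2. The cells had the markers of their type, with 8 measured B cell markers at levels of 8.83 to 13.0, whereas markers of T and NK cells (6.17 to 6.77), monocytes (6.00 to 6.67) and fibroblasts (5.80 to 6.87) lay near the median of all probe sets, 6.45. The B cell markers, which include the germinal centre genes MME, BCL6 and CD38, themselves moved with the stimuli. At an adjusted p of at most 0.05 (limma) 6 of 8 were lower after CD40L (median log2 fold change -0.45). After LPS 4 of 8 were lower (median -0.26). Of all genes whose brightest probe set lay at or above the median level, 4.47% and 2.3% were lower. MS4A1 and PAX5 were not called lower after either stimulus. The part of this in the results below was not tested. Most of 9 genes taken as checks of the response changed at an adjusted p of at most 0.05 (limma). CCL22 did so after neither stimulus, IFIT3 not after CD40L and NFKB2 not after LPS. The paper reports every check gene that passed as changed by the same stimulus in these same data. It ranks ID1 and CD58 among the genes most changed by both stimuli, so these checks are not independent. ID1, a repressor of differentiation, changed by -2.01 on the log2 scale with CD40L (adjusted p = 7.98e-10) and by -1.90 with LPS (adjusted p = 3.67e-09, limma). The adhesion molecule CD58 was 1.62 higher with CD40L (adjusted p = 3.51e-08) and 0.83 higher with LPS (adjusted p = 0.000145, limma).

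Most of the SR protein and hnRNP probe sets were bright. Their mean levels over the 9 arrays ran between 5.76 and 13.0 with a median of 9.21, and 78 of 116 lay above the 75th percentile of all probe sets. Another 20 lay below the median of all probe sets, where few probe sets of any gene were called. Those 20 included all 4 probe sets of HNRNPLL, the hnRNP that is raised in activated T cells and plasma cells, and both of SRSF12.

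After CD40L a minority of the members passed the test, from both families, and each of these was slightly higher than in control. At an adjusted p of at most 0.05 (limma, Benjamini-Hochberg over all 54613 probe sets) 10 of 116 member probe sets were higher in CD40L cells than in control, against 3.71% of all probe sets, and 0 were lower, against 1.87%. The 10 probe sets belonged to 3 SR protein genes, SRSF3, SRSF4 and SRSF6, and to 5 hnRNP genes, HNRNPA0, HNRNPC, HNRNPDL, HNRNPK and HNRNPL. Read from the brightest probe set of each gene, 2 of 10 SR protein genes and 0 of 19 hnRNP genes were called higher. Of all genes whose brightest probe set lay at or above the median level, 7.81% were called higher. The changes were small, between 0.23 and 0.41 on the log2 scale. At an unadjusted p under 0.05 the counts were 36 higher, against 10.3% of all probe sets, and 0 lower, against 5.48%.

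The position of the members among bright probe sets bears on how these shares are read, since a change is called most often at middle levels. Of all probe sets, 13.8% were called higher after CD40L at levels from 8 to 10 and 13.5% from 10 to 12, but 3.72% at 12 and above and 0.146% below the median. Among the members, 4 of 28 were called from 8 to 10 and 6 of 30 from 10 to 12, and none of the 16 at 12 and above or of the 42 below 8. Their share of calls was thus near that of all probe sets of the same level from 8 to 10, and somewhat above it from 10 to 12.

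The distribution of the members was centred a little above 0, with values on both sides of it. Their median log2 fold change after CD40L was 0.07, with 0.09 for SR protein and 0.06 for hnRNP probe sets, against 0.005 for all probe sets. At or above the median level it was 0.10 for the members, against 0.02 for all. Brighter probe sets of any gene were shifted too. From 8 to 10 the medians were 0.14 for members and 0.07 for all, and from 10 to 12 they were 0.14 and 0.06. At 12 and above they were 0.03 and -0.06. A positive log2 fold change was found in 89 of 116, against 52.5% of all, and in 78 of the 96 at or above the median level, against 57.4% of all probe sets there. Among those 96, tested alone, 11 were called higher, against 7.29%, and 0 lower, against 3.57%. The 3 CD40L arrays all exceeded the 3 control arrays in 18 members, against 9.09% of all, and all lay below them in 0, against 7.27%. The shift was not the same in each batch. The members' median difference was 0.09 in batch 1, 0.09 in batch 2 and 0.02 in batch 3, while that of all probe sets at or above the median level was 0.01, 0.06 and -0.002. It also moved with the scaling. After quantile normalization the members' median was 0.04, against -0.0003 for all, and 7 members were called higher, against 3.13% of all, and 1 lower, against 3.1%. The part of scaling in the shift was not tested.

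**Figure D1:**
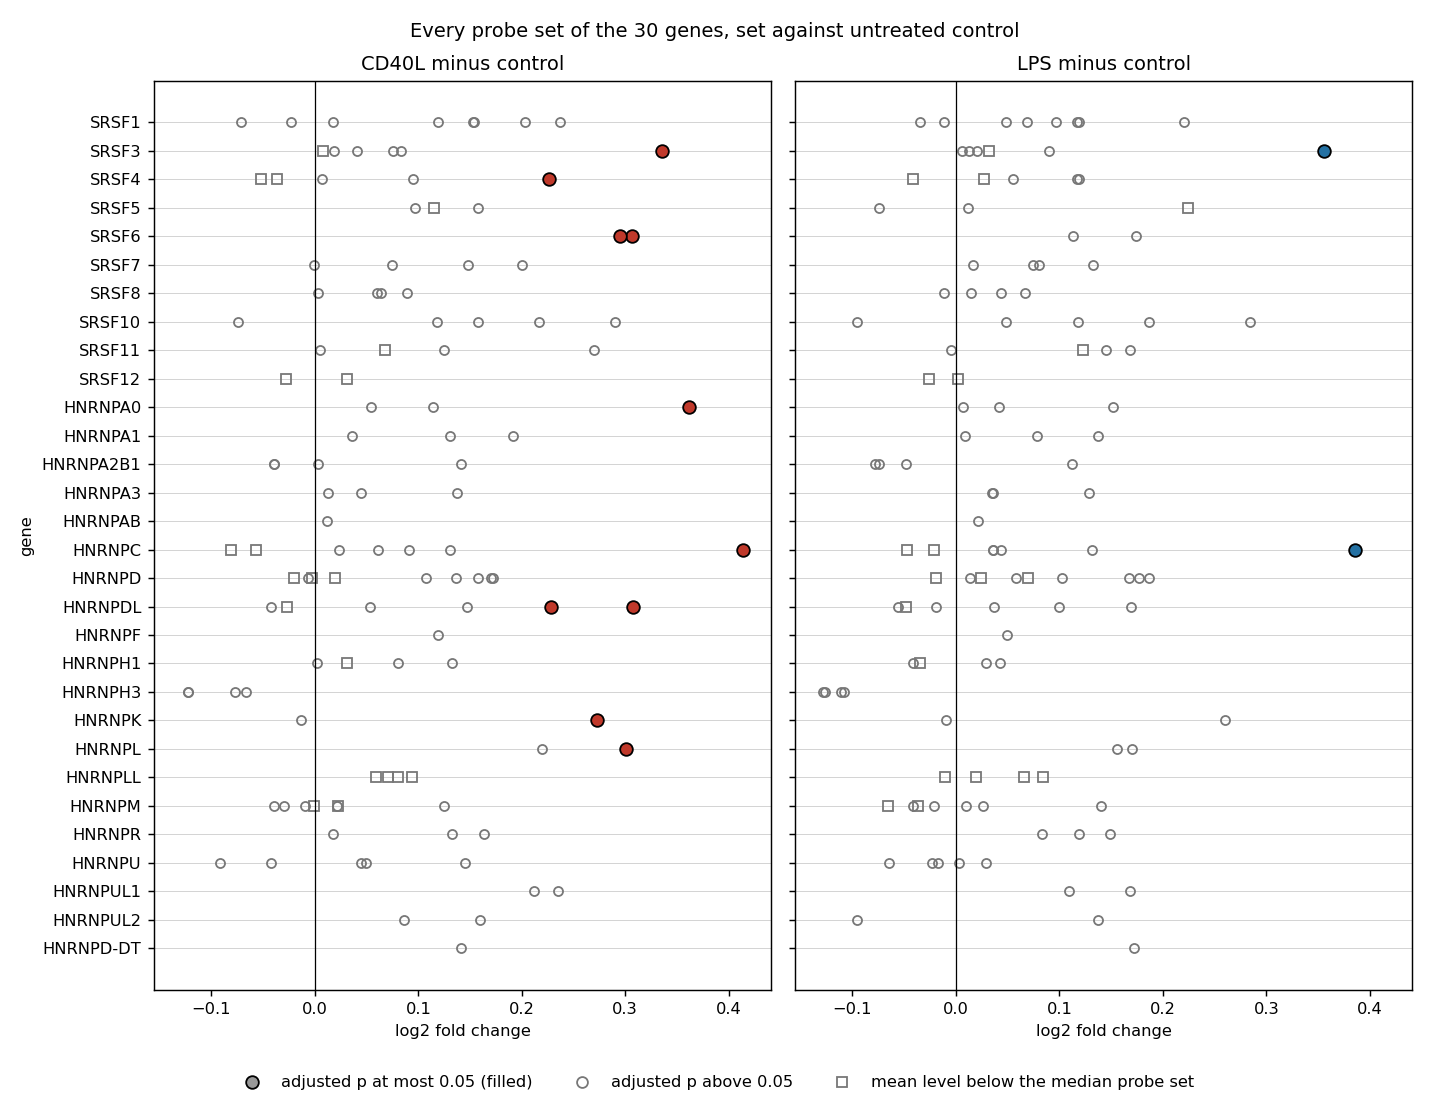
Log2 fold change (x axis) of each of the 116 probe sets, by gene (y axis), for CD40L minus control (left) and LPS minus control (right); filled symbols passed an adjusted p of 0.05 and squares are probe sets with a mean level below the median of all. After CD40L 89 of 116 lie to the right of 0 and 10 are filled, after LPS 83 lie to the right and 2 are filled.

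HNRNPC had the member probe set with the largest change. HNRNPC binds runs of uridine, packages nascent transcripts and keeps cryptic exons out of mRNA. Its probe set 227110_at had levels of 10.45, 10.45 and 10.39 in CD40L cells (batches 1 to 3) and 10.42, 10.31 and 10.49 in LPS cells, against 10.10, 10.04 and 9.92 in control. All 6 stimulated arrays lay above all 3 control arrays. It rose by 0.41 ± 0.06 (SE) on the log2 scale after CD40L, 1.33-fold, with an adjusted p of 0.000856, and 0.39 ± 0.06 after LPS, 1.31-fold, with an adjusted p of 0.00414 (limma). The call after CD40L was kept in 20 of 20 alternative analyses. The call after LPS was kept in 17 of 20, and lost without LPS replicate 3 (0.31, adjusted p = 0.0587), without batch 1 (0.42, adjusted p = 0.0551) and without batch 3 (0.29, adjusted p = 0.114).

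SRSF3, the smallest SR protein, which also couples splicing to the export of mRNA, was the other member gene called after both stimuli. Its probe set 208673_s_at had levels of 11.04, 11.04 and 10.78 in CD40L cells and 11.00, 10.97 and 10.96 in LPS cells, against 10.80, 10.52 and 10.53 in control. The LPS arrays lay above every control array, whereas CD40L replicate 3 lay just below control replicate 1 but above the control array of its own batch. On the log2 scale it was 0.34 ± 0.07 (SE) higher after CD40L (adjusted p = 0.00682) and 0.36 ± 0.07 higher in LPS cells (adjusted p = 0.0108, limma). Without CD40L replicate 2 the CD40L value was 0.27 (adjusted p = 0.0763), and without batch 2 it was 0.24 (adjusted p = 0.0509). Without the batch term the adjusted p was 0.0628 after CD40L and 0.106 after LPS. For LPS, leaving out replicate 2 of that group gave 0.36 (adjusted p = 0.0742), replicate 3 gave 0.30 (adjusted p = 0.130) and batch 3 gave 0.32 (adjusted p = 0.149).

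The start sites of these genes are shown because, among the members, HNRNPC and SRSF3 alone had a probe set called after both stimuli. The sequences are RefSeq windows on GRCh38.p14 that run from 250 bases before to 50 bases after the annotated start, on the strand of the gene, for HNRNPC at chr14:21269393-21269692 (minus strand) and for SRSF3 at chr6:36594112-36594411 (plus strand). Capitals mark CCAAT, its reverse complement ATTGG, and TATAAA.
HNRNPC: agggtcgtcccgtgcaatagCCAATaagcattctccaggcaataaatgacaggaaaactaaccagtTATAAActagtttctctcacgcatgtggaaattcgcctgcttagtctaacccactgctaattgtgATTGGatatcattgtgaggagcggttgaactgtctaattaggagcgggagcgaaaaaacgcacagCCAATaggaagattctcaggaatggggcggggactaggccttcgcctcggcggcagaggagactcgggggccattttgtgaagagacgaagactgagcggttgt
SRSF3: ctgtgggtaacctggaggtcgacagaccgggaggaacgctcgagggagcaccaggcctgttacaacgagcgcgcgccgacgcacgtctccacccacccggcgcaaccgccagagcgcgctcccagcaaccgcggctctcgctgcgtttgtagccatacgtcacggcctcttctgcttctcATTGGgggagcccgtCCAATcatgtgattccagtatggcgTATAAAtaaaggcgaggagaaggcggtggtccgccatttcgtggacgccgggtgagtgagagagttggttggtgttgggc
HNRNPC held 3 CCAAT boxes, beginning 230, 119 and 54 bases before the start, and TATAAA 184 bases before it. SRSF3 held 2 CCAAT boxes, 70 and 55 bases before the start, and TATAAA 30 bases before it, the usual place of a TATA box. Windows were found for 29 of the 30 genes, 43 in all, since some genes have several starts. CCAAT in either direction lay in 21 of 43, against 34.6% of all 35116 windows, and TATAAA in 6 of 43, against 11.5%. CACGTG, the E-box, lay in 7 of 43 against 7.26%, GGGCGG, the core of a GC box, in 27 of 43 against 45%, and TGACGTCA, the cyclic AMP response element, in 0 of 43 against 1.85%. Windows of the same gene are not independent. By gene, in the same order, the motifs lay in 18, 6, 6, 21 and 0 of 29. The share over all genes was not taken. The motifs do not overlap one another. A match of letters is not a site of binding.

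SRSF6 was the only member gene with every probe set called after CD40L, and it is best known for its work on alternative exons of the tau transcript. Its probe set 208804_s_at had levels of 10.82, 10.91 and 10.93 in CD40L cells and 10.64, 10.60 and 10.89 in LPS cells, against 10.68, 10.54 and 10.56 in control. The CD40L arrays did not overlap with control, and the LPS arrays did. The other probe set, 206108_s_at, showed the same order, with 10.28, 10.33 and 10.36 in CD40L cells and 10.14, 10.09 and 10.35 in LPS cells, against 10.21, 9.91 and 9.94 in control. The log2 fold changes after CD40L were 0.30 ± 0.07 (adjusted p = 0.0191) and 0.31 ± 0.08 (SE, adjusted p = 0.0288, limma), and after LPS 0.11 (adjusted p = 0.619) and 0.17 (adjusted p = 0.396). In LPS cells both probe sets were highest in batch 3. Both calls were lost without CD40L replicate 2 (adjusted p = 0.155 and 0.218), without CD40L replicate 3 (0.0762 and 0.124), without control replicate 3 (0.115 and 0.168) and without batch 3 (0.108 and 0.189), and that of 206108_s_at also without batch 2 (0.101).

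SRSF4, a long SR protein, was called by its single bright probe set, 201696_at. Levels were 10.10, 10.03 and 9.98 in CD40L cells and 10.04, 9.86 and 9.88 in LPS cells, against 9.91, 9.71 and 9.81 in control. CD40L and control arrays did not overlap. The log2 fold change after CD40L was 0.23 ± 0.06 (SE, adjusted p = 0.0259, limma). This was the least stable of the calls and was kept in 6 of 20 alternatives, with an adjusted p of up to 0.191 (without CD40L replicate 2). It was lost without any one batch, without any one CD40L array, without LPS replicate 1 and without control replicate 1 or 2.

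Among the hnRNPs, HNRNPA0 followed HNRNPC. HNRNPA0 binds AU-rich elements and stabilizes mRNAs of the inflammatory response. Levels of 201055_s_at were 9.39, 9.61 and 9.28 in CD40L cells and 9.20, 9.20 and 9.24 in LPS cells, against 9.04, 9.03 and 9.12 in control. The LPS arrays lay between the other conditions without overlap on either side. Relative to control it was 0.36 ± 0.07 higher after CD40L (adjusted p = 0.00595), and its log2 fold change in LPS cells was 0.15 ± 0.07 (SE, adjusted p = 0.438, limma). Without CD40L replicate 2 the CD40L value was 0.26 (adjusted p = 0.0643), and without batch 1 it was 0.37 (adjusted p = 0.0835).

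HNRNPK, which binds C-rich stretches and acts in transcription as well as splicing, was called after CD40L by 200097_s_at. Levels were 12.04, 12.04 and 11.83 in CD40L cells and 11.998, 11.99 and 11.88 in LPS cells, against 11.71, 11.62 and 11.76 in control. All 6 stimulated arrays exceeded the control arrays, with the smallest differences in batch 3. The log2 fold change was 0.27 ± 0.07 (adjusted p = 0.0210) with CD40L and 0.26 ± 0.07 (adjusted p = 0.0549) with LPS (SE, limma). The CD40L call was lost without batch 1 (adjusted p = 0.240) or 2 (0.141), without CD40L replicate 1 (0.127) or 2 (0.159), and without control replicate 1 (0.0980) or 2 (0.0845), whereas the LPS value passed without control replicate 3 (0.34, adjusted p = 0.0141) and without CD40L replicate 2 (0.26, adjusted p = 0.0478).

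HNRNPDL, a relative of HNRNPD that shuttles between nucleus and cytoplasm, was called after CD40L by 2 of its 6 probe sets. Levels of 1554678_s_at were 11.37, 11.02 and 10.91 in CD40L cells and 11.11, 10.78 and 10.79 in LPS cells, against 10.94, 10.57 and 10.87 in control. The arrays of batch 1 were the highest in every condition, and the groups overlapped. CD40L and control differed by 0.31 ± 0.07 on the log2 scale (adjusted p = 0.0180), from differences of 0.43, 0.45 and 0.04 in batches 1 to 3. Levels of 212454_x_at were 8.24, 8.21 and 8.23 in CD40L cells and 8.19, 8.06 and 8.25 in LPS cells, against 7.99, 7.88 and 8.12 in control, a log2 fold change of 0.23 ± 0.06 after CD40L (SE, adjusted p = 0.0300, limma). Both calls were lost without batch 1 or 2, without CD40L replicate 1 or 2 and without control replicate 1. That of 212454_x_at was also lost without batch 3, LPS replicate 1 or control replicate 2, with adjusted p-values of up to 0.239.

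HNRNPL, the repressor of CD45 exons that binds CA repeats, had the widest spread between batches. Levels of 202072_at were 10.32, 10.01 and 9.71 in CD40L cells and 10.20, 9.77 and 9.68 in LPS cells, against 10.17, 9.40 and 9.57 in control. Batch 1 was high in all 3 conditions and the groups overlapped, so that the call rested on the batch term. CD40L and control differed by 0.30 ± 0.08 (log2 scale, SE, adjusted p = 0.0330, limma) with batch in the fit, and its adjusted p was 0.610 without it. Differences were 0.15, 0.61 and 0.14 in batches 1 to 3. The call was lost without any one batch, without CD40L replicate 1 or 2, without LPS replicate 1 or 3 and without control replicate 2, and without control replicate 2 the log2 fold change was 0.17 (adjusted p = 0.191). The other probe set of the gene, 35201_at, differed by 0.22 between CD40L and control (adjusted p = 0.183) and had the same high control array in batch 1, 10.50 against 9.76 and 9.75 in batches 2 and 3.

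**Figure D2:**
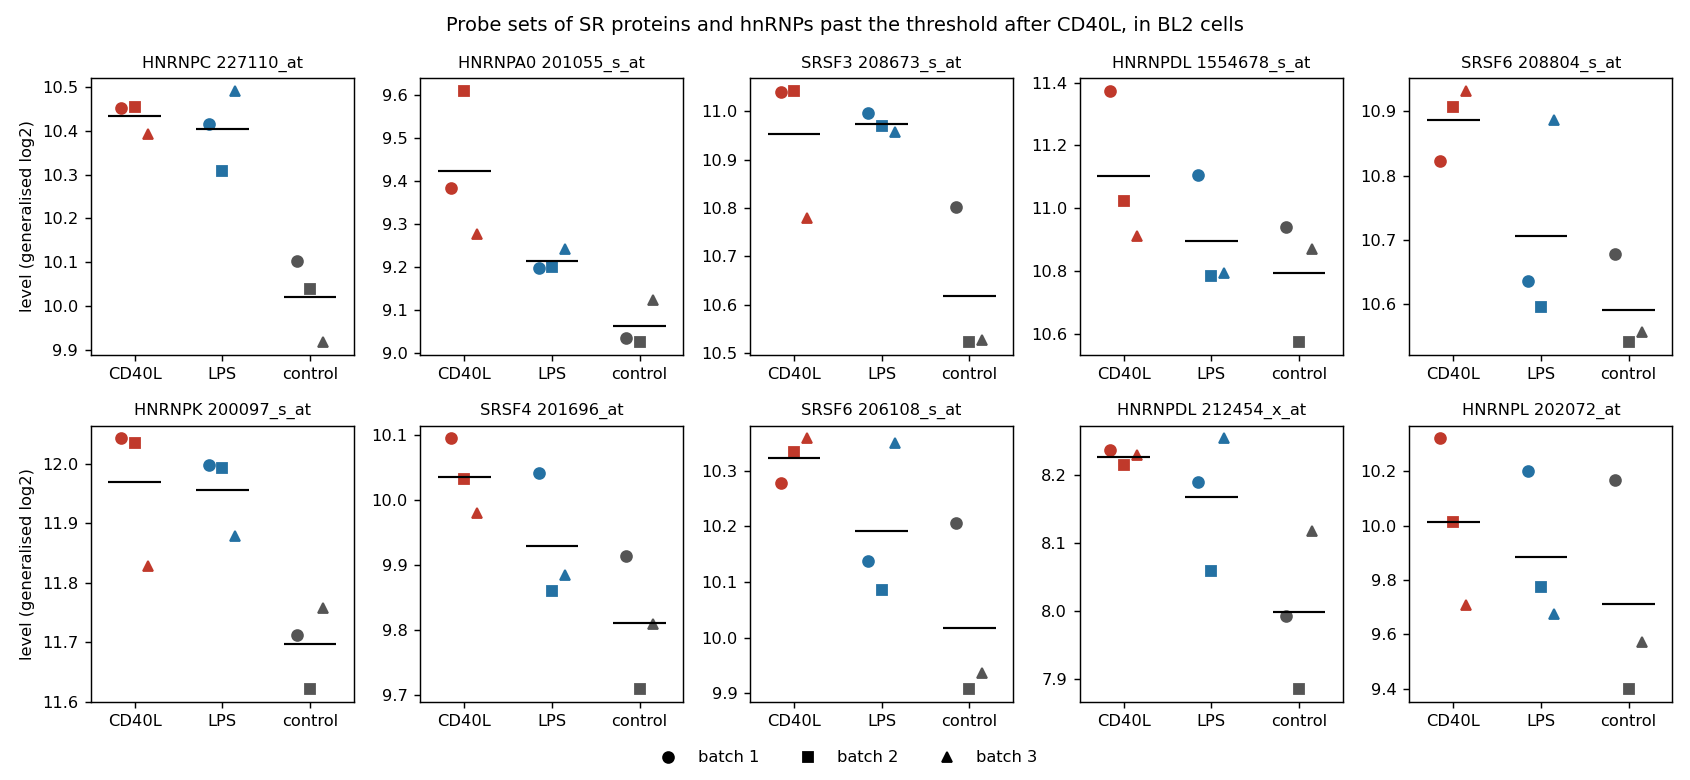
Level (y axis, generalised log2, with its own range in each panel) of the 10 probe sets called after CD40L, in CD40L, LPS and control cells (x axis); symbols give the batch and lines the mean of 3 arrays. HNRNPC 227110_at is at 10.31 to 10.49 on all stimulated arrays and at 9.92 to 10.10 in control, while HNRNPL 202072_at is highest in batch 1 in every condition.

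Just outside the threshold after CD40L lay SRSF10 204299_at (log2 fold change 0.29, adjusted p = 0.0513), SRSF11 200686_s_at (0.27, adjusted p = 0.0532) and HNRNPUL1 208713_at (0.21, adjusted p = 0.0605, limma). SRSF10, which turns into a general splicing repressor when it loses its phosphates, had levels of 9.55, 9.74 and 9.36 in CD40L cells on that probe set, against 9.42, 9.12 and 9.24 in control. The largest difference, 0.62, was in batch 2. SRSF11 had 11.58, 11.75 and 11.54 in CD40L cells against 11.43, 11.18 and 11.45 in control, again with the largest difference, 0.56, in batch 2. SRSF1, the founding member of the family, had 8 probe sets with log2 fold changes from -0.07 to 0.24, none called, and HNRNPD, which speeds the decay of AU-rich mRNAs, had 9 from -0.02 to 0.17, none called.

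The members did not all lean the same way. Every probe set had a positive log2 fold change after CD40L in 5 of 10 SR protein genes and 11 of 19 hnRNP genes, and probe sets of both signs were found in the other 5 SR protein genes and in 7 hnRNP genes. The remaining gene was HNRNPH3, a relative of the G-run binding protein HNRNPH1, with all 4 probe sets below 0 after both stimuli. The values were -0.12 to -0.07 after CD40L (lowest adjusted p = 0.334) and -0.13 to -0.11 after LPS (lowest adjusted p = 0.40, limma), so that none passed. Levels of its probe set 210110_x_at were 9.23, 9.41 and 9.33 in CD40L cells and 9.25, 9.34 and 9.36 in LPS cells, against 9.37, 9.41 and 9.56 in control. After quantile normalization this probe set was called lower after CD40L (-0.19, adjusted p = 0.0368).

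The number of calls depended on single arrays. Left out in turn, CD40L replicate 2 reduced the 10 calls after CD40L to 1 (HNRNPC 227110_at), CD40L replicate 1 and control replicate 2 each to 6, while without control replicate 3 there were 17, of which 8 were among the 10. Without batch 1 there were 5 calls and without batch 2 there were 3. Without the batch term 2 calls were left after CD40L, HNRNPA0 201055_s_at and HNRNPC 227110_at, and 1 after LPS, HNRNPC 227110_at. The values of every called probe set stayed above 0 in each of these fits. The share of all probe sets called in these fits was not taken. The dependence is thus not shown to be particular to the members.

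LPS gave fewer calls. At an adjusted p of at most 0.05 (limma) 2 of 116 probe sets were higher in LPS cells than in control, against 1.17% of all probe sets, and 0 were lower, against 0.892%. These were HNRNPC 227110_at and SRSF3 208673_s_at, described above. Read from the brightest probe set of each gene, 0 of 10 SR protein genes and 0 of 19 hnRNP genes were called higher. Of all genes whose brightest probe set lay at or above the median level, 2.51% were called higher. At an unadjusted p under 0.05 the counts were 17 higher, against 7.06% of all, and 2 lower, against 4.57%, and both of the lower ones were probe sets of HNRNPH3. The median log2 fold change was 0.04, with 0.07 for SR protein and 0.03 for hnRNP probe sets, against 0.003 for all, and 83 of 116 were above 0, against 51.8% of all. At or above the median level the median was 0.05 for members and 0.01 for all. From 8 to 10 the medians were 0.10 and 0.04, from 10 to 12 they were 0.08 and 0.04, and at 12 and above 0.02 and -0.06. By batch the median difference was 0.05, 0.08 and 0.02, while that of all probe sets at or above the median level was 0.01, 0.05 and -0.01. Among the 96 members at or above the median level, 73 were above 0, against 55.9% of all probe sets there, and tested alone 2 were called higher, against 2.11%, and 0 lower, against 1.62%, so that the share of calls was no larger than that of all probe sets of such levels. After quantile normalization 4 were called higher, against 1.42% of all, and 0 lower, against 1.59%. The LPS arrays lay above all control arrays in 14 members, against 7% of all, and below them in 4, against 6.38%. Without LPS replicate 3 or without batch 3 there were 0 calls, without LPS replicate 2 or without batch 1 there was 1, without CD40L replicate 2 there were 4 and without control replicate 3 there were 5. For the fits with an array or a batch left out, the share of all probe sets called was not taken.

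SRSF11 had 3 of its 4 probe sets with LPS arrays above all control arrays, where 7% of all probe sets had this. Their log2 fold changes were 0.12, 0.14 and 0.17, none of them called. The first of these, 236948_x_at, was dim, with a mean level of 6.04. SRSF5 210077_s_at, a dim probe set, was 0.22 higher (adjusted p = 0.0656, limma) with levels of 6.51, 6.54 and 6.54 in LPS cells, against 6.32, 6.19 and 6.41 in control. The brighter probe sets of SRSF5 had values of 0.01 and -0.07, and on both the LPS array of batch 3 stood above the others, at 9.96 on 203380_x_at against 9.51 and 9.42.

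CD40L and LPS share their control arrays, so the 2 comparisons with control are not independent. Set against each other directly, no member differed at an adjusted p of at most 0.05 (limma), with 0 higher in CD40L cells (0.3% of all probe sets) and 0 lower (0.0952%). At an unadjusted p under 0.05 there were 5 higher, against 2.94% of all, and 0 lower, against 2.04%. The lowest adjusted p-values were those of HNRNPA0 201055_s_at (0.21 ± 0.07, adjusted p = 0.631), HNRNPDL 1554678_s_at (0.21 ± 0.07, adjusted p = 0.651) and HNRNPUL2 222264_at (0.18 ± 0.07, SE, adjusted p = 0.798). HNRNPUL2 222264_at had levels of 7.60, 7.67 and 7.64 in CD40L cells against 7.38, 7.54 and 7.45 in LPS cells, which do not overlap. The CD40L arrays lay above all LPS arrays in 4 of 116 members, against 5.1% of all probe sets, and below them in 0, against 4.07%. The median difference of the members was 0.02, against 0.005 for all probe sets, and at or above the median level it was 0.03, against 0.01. A larger number of calls after CD40L than after LPS is thus not shown to be a difference between the stimuli for any one of these genes.

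Probe sets of the same gene were then set against each other, to see whether they moved together. For each of 113 probe sets of the 27 genes with more than 1, the level was taken relative to the mean of the gene's other probe sets on the same array, and the same fit was run over 31839 probe sets of all genes. After CD40L 1 member was higher than the rest of its gene at an adjusted p of at most 0.05 (limma), against 1.01% of all, and 0 were lower, against 1.08%. After LPS the counts were 1 higher, against 0.270%, and 0 lower, against 0.280%. At an unadjusted p under 0.05 there were 12 members higher after CD40L, against 6.61% of all, and 8 lower, against 6.75%, and after LPS 8 higher, against 4.88%, and 5 lower, against 5.01%. In a gene with 2 probe sets each is the mirror image of the other, and 2 of these members after CD40L and 4 after LPS were of that kind.

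The member that moved apart was HNRNPC 227110_at under both stimuli. After CD40L it changed by 0.41, whereas the other 6 probe sets of HNRNPC averaged 0.03, a difference of 0.39 ± 0.08 (SE, adjusted p = 0.0130, limma). After LPS the difference was 0.36 (adjusted p = 0.0477). The other probe sets of the gene split into 4 with mean levels near 12, with log2 fold changes of 0.02 to 0.13 after CD40L, and 2 dim ones at -0.08 and -0.06. Levels of the brightest, 214737_x_at, were 12.39, 12.36 and 12.40 in CD40L cells and 12.33, 12.36 and 12.50 in LPS cells, against 12.26, 12.42 and 12.41 in control, with full overlap. With dim probe sets left out, the difference was 0.34 after CD40L (adjusted p = 0.0599) and 0.32 after LPS (adjusted p = 0.139), which did not pass. Without batch 3 it was 0.30 after CD40L (adjusted p = 0.145) and 0.24 after LPS (adjusted p = 0.432), and the call after LPS was also lost without batch 1 (0.41, adjusted p = 0.140) and without batch 2 (0.41, adjusted p = 0.0555).

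SRSF3 and HNRNPK showed the same layout without passing the test. SRSF3 208673_s_at differed from the rest of its gene by 0.29 after CD40L (adjusted p = 0.0577) and by 0.32 in LPS cells (adjusted p = 0.0706), and its other 5 probe sets had log2 fold changes of 0.01 to 0.08 after CD40L. The brightest of them, 208672_s_at, had levels of 12.83, 12.86 and 12.91 in CD40L cells, against 12.71, 12.79 and 12.89 in control. HNRNPK 200097_s_at differed by 0.29 after CD40L (adjusted p = 0.0531, limma) from the only other probe set, 200775_s_at, which had 12.99, 12.97 and 13.02 in CD40L cells and 13.00, 12.92 and 13.06 in LPS cells, against 12.94, 13.00 and 13.08 in control. HNRNPA0 201055_s_at differed by 0.28 (adjusted p = 0.0563), and SRSF10 225348_at lay 0.27 below the rest of its gene (difference -0.27, adjusted p = 0.0567, limma).

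In HNRNPC, SRSF3, HNRNPA0, HNRNPK, HNRNPDL and HNRNPL the brightest probe set was not called after CD40L, whereas a dimmer one was. The brightest probe set lay at 12 or above in HNRNPC, SRSF3 and HNRNPK, where 3.72% of all probe sets were called, but at 11.6 in HNRNPA0, 11.8 in HNRNPDL and 10.13 in HNRNPL, where the share was 13.5%. In SRSF4 and SRSF6 the brightest probe set was itself called. The part of brightness in these calls was not tested, and the stretch of each transcript that a probe set reads is not in the files used here.

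**Figure D3:**
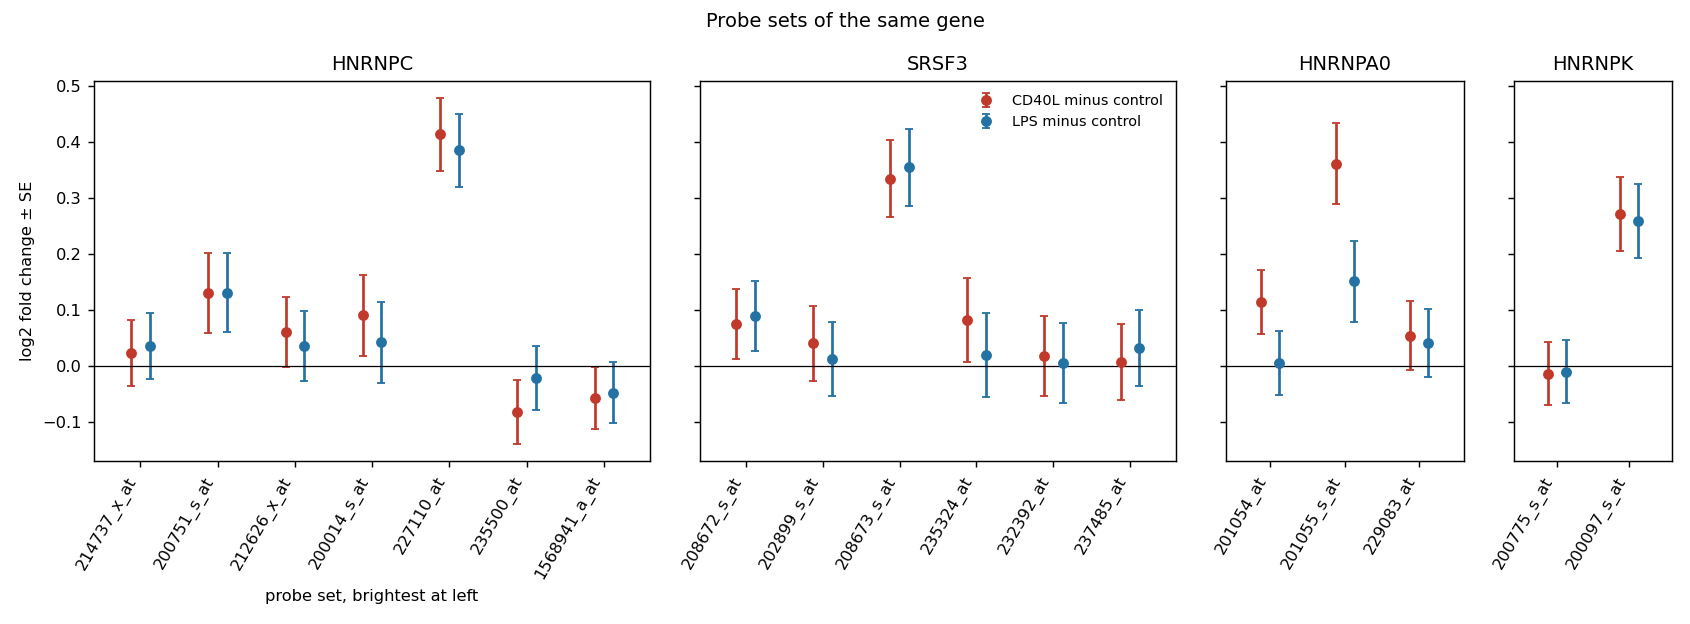
Log2 fold change ± SE (y axis) of every probe set (x axis, brightest at the left) of HNRNPC, SRSF3, HNRNPA0 and HNRNPK, for CD40L minus control and LPS minus control. In HNRNPC 227110_at stands at 0.41 after CD40L and 0.39 after LPS, and the other 6 probe sets lie between -0.08 and 0.13.

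The enzymes and partners of these proteins were read from the brightest probe set of each gene on a fixed list, and all of these lay at or above the median level. Of all 12630 genes whose brightest probe set lay there, 7.81% were called higher and 4.47% lower after CD40L, and 2.51% higher and 2.3% lower after LPS, with median log2 fold changes of 0.02 and 0.01. Phosphorylation governs where SR proteins reside and how they act, and it is carried out by SRPK kinases in the cytoplasm and CLK kinases in the nucleus. Of 7 kinases, 1 was higher after CD40L and 0 lower (limma, adjusted p of at most 0.05), and 0 passed after LPS, and a single call among so few genes cannot be told from the share over all genes. It was CLK4, at 8.20 ± 0.16 in CD40L cells and 8.08 ± 0.08 in LPS cells, against 7.87 ± 0.18 in control (SD, n = 3 each), which is 0.34 higher after CD40L (adjusted p = 0.00233) and 0.22 higher after LPS (adjusted p = 0.0753) on the log2 scale. CLK1 had 0.24 (adjusted p = 0.0674) and SRPK1 0.23 (adjusted p = 0.0623) after CD40L. The median over the 7 kinases was 0.13 on the log2 scale after CD40L and 0.06 after LPS.

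Of 15 SR-related proteins, which share the arginine and serine rich domain, 3 were higher after CD40L, against 7.81% of genes, and 0 lower, and after LPS 1 was higher, against 2.51%, and 0 lower. LUC7L2, a partner of the U1 particle at 5′ splice sites, was at 10.01 ± 0.14 in CD40L cells and 9.99 ± 0.09 in LPS cells, against 9.58 ± 0.21 in control (SD, n = 3 each), which is 0.43 higher after CD40L (adjusted p = 0.00180) and 0.41 higher after LPS (adjusted p = 0.00564, limma) on the log2 scale. The splicing coactivator SRRM1 (0.28, adjusted p = 0.0292) and RNPS1 (0.27, adjusted p = 0.0225), which joins the exon junction complex, were the other two after CD40L. The list's median was 0.12 after CD40L and 0.13 after LPS.

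The relatives of the hnRNPs and other RNA-binding regulators of splicing moved in both directions. Of 32 measured, 8 were higher, against 7.81% of genes, and 3 lower, against 4.47%, after CD40L. After LPS 4 were higher, against 2.51%, and 3 lower, against 2.3% (limma). PSPC1, a protein of paraspeckles, showed the largest change, at 9.95 ± 0.20 in CD40L cells and 9.87 ± 0.08 in LPS cells, against 9.31 ± 0.06 in control (SD, n = 3 each), which is 0.64 higher after CD40L (adjusted p = 1.72e-05) and 0.56 higher after LPS (adjusted p = 0.000269) on the log2 scale. RBM3 (0.48, adjusted p = 0.00107 in CD40L cells, and 0.44, adjusted p = 0.00573 in LPS cells) and CIRBP (0.44, adjusted p = 0.00118, and 0.43, adjusted p = 0.00413) are RNA-binding proteins induced by mild cold.

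RBFOX2, which binds near alternative exons of many tissues, was lower, at 9.18 ± 0.09 in CD40L cells and 9.38 ± 0.08 in LPS cells, against 9.76 ± 0.11 in control (SD, n = 3 each). That is a change of -0.58 with CD40L (adjusted p = 6.43e-05) and of -0.38 with LPS (adjusted p = 0.0070, limma). MBNL2, of the muscleblind family, had -0.51 (adjusted p = 0.000339) and -0.29 (adjusted p = 0.0461), and RBM5, which acts on exons of apoptosis genes, had -0.33 (adjusted p = 0.00474) and -0.28 (adjusted p = 0.0321). The list's median was 0.10 after CD40L and 0.06 after LPS. No SR protein or hnRNP probe set had a change as large as those of PSPC1, RBFOX2 or MBNL2 after CD40L.

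Some core parts of the spliceosome were higher after CD40L. Of 25 genes of the U1 and U2 particles and the branch site, 4 were higher after CD40L, against 7.81% of genes, and 0 lower, against 4.47%, and 0 passed after LPS (limma). They were SF1, which binds the branch point (0.42, adjusted p = 0.0144), and PHF5A (0.26, adjusted p = 0.0276), SF3A3 (0.25, adjusted p = 0.0292) and SNRPA1 (0.24, adjusted p = 0.0231), parts of the U2 particle. Of 23 measured genes of the tri-snRNP and the catalytic steps, BUD31 (0.25, adjusted p = 0.0354) and PRPF3 (0.24, adjusted p = 0.0199) were higher after CD40L, close to the share over all genes, 0 lower, and 0 passed after LPS. The medians of these lists were 0.10 and 0.07 after CD40L, and 0.08 and 0.01 after LPS. Member probe sets at or above the median level had a median of 0.10 after CD40L and 0.05 after LPS. That median is taken over all such probe sets of a gene, not the brightest alone.

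Of 8 measured genes for the import of SR proteins and for nonsense-mediated decay, which limits the transcripts with such alternative exons, 2 were higher after CD40L, against 7.81% of genes, and 1 after LPS, against 2.51%, and 0 were lower. EIF4A3, the anchor of the exon junction complex, was at 12.38 ± 0.04 in CD40L cells and 12.32 ± 0.14 in LPS cells, against 12.03 ± 0.05 in control (SD, n = 3 each), which is 0.35 higher after CD40L (adjusted p = 0.00417) and 0.29 higher after LPS (adjusted p = 0.0340, limma) on the log2 scale. UPF1, the helicase of nonsense-mediated decay, had 0.36 (adjusted p = 0.0326) with CD40L and 0.29 (adjusted p = 0.170) with LPS. TNPO3, which imports SR proteins, had 0.19 (adjusted p = 0.140) after CD40L. Between CD40L and LPS directly, 0 genes of these 6 lists were called, against 0.752% of genes higher and 0.23% lower.

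**Figure D4:**
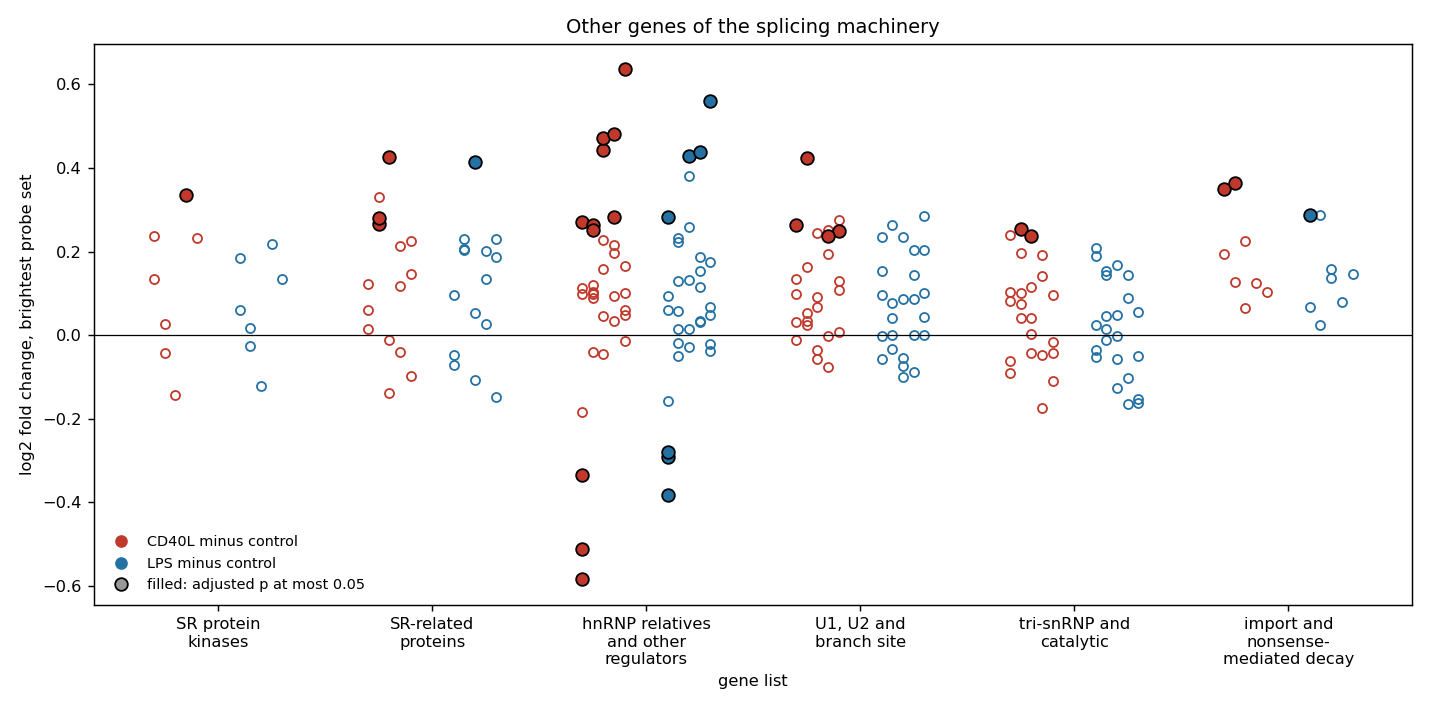
Log2 fold change of the brightest probe set (y axis) of each gene on 6 lists of the splicing machinery (x axis), for CD40L minus control and LPS minus control; filled symbols passed an adjusted p of 0.05. The lists lie mostly above 0, and the 3 genes called lower are RBFOX2, MBNL2 and RBM5, all regulators of alternative splicing. No SRSF or HNRNP gene is plotted here.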

How the data were processed

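The authors corrected and normalised the intensities with a variance stabilising transformation, summarised each probe set by median polish and deposited the values on a generalised log2 scale, which is flatter for dim probe sets. These deposited log2 values were used as given, and no raw intensity was used. The number of arrays limits the precision. The 62 AFFX control probe sets were left out. Condition and batch were fitted with limma 3.58.1 (lmFit and eBayes, R 4.3.3) to all 54613 probe sets, after the code had been tested on simulated data, and p-values were adjusted by Benjamini-Hochberg over all of them. The batch term rests on the batch numbers in the labels. An exact permutation test of 3 against 3 arrays cannot go below 0.1 and was not used.

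Genes were named through the platform annotation, from probe sets with 1 gene. Every gene with a probe set past 0.05 in any fit was named, as were the 3 lowest adjusted p-values where fewer than 5 passed, and up to 4 called genes per list. The members and lists were chosen with earlier results of these data known. Alternatives were no batch term, a random batch, only the 2 groups compared, quantile or median scaling, a filter on dim probe sets, a robust trend, AFFX kept, diffSplice, and 1 array or batch left out.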

Additional observations from a re-analysis of the deposited data

Results flagged for a closer look

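Of the 14 probe sets annotated to an SRSF or HNRNP gene together with other genes, which are in no comparison above, 3 were higher than control after both stimuli at an adjusted p of at most 0.05 (limma). All 3 are annotated to both SRSF2 and MIR636, a microRNA, and were assigned to neither. Levels of 200753_x_at were 11.97, 11.93 and 11.89 in CD40L cells and 12.03, 11.93 and 11.92 in LPS cells, against 11.62, 11.55 and 11.51 in control. The log2 fold change was 0.37 after CD40L (adjusted p = 0.000460) and 0.40 after LPS (adjusted p = 0.000782). The values of 200754_x_at were 0.27 (adjusted p = 0.0184) and 0.27 (adjusted p = 0.0396), and those of 214882_s_at were 0.33 (adjusted p = 0.00415) and 0.26 (adjusted p = 0.040, limma). On each of the 3 probe sets every stimulated array lay above every control array. Of all probe sets, 9.09% had the CD40L arrays above all control arrays and 7% the LPS arrays. The other 11 such probe sets were not called, and log2 fold changes over all 14 ran from -0.14 to 0.37 after CD40L and from -0.10 to 0.40 after LPS. Among these 14 probe sets, 0 differed between CD40L and LPS.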

How the results depend on the processing

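The values of the probe sets called after either stimulus, of the 3 lowest p-values between CD40L and LPS, and of HNRNPC, SRSF3, HNRNPA0 and HNRNPK within their genes kept their sign in each alternative run on them, and other named values were not recomputed. The 10 higher calls after CD40L became 2 without the replicate block, 5 with batch as a random effect and 4 with only CD40L and control arrays in the fit, and ranged from 1 to 17 when an array or a batch was left out. Quantile normalization gave 7 higher and 1 lower. The 2 calls after LPS became 1 without the replicate block, 1 with a random batch and 4 after quantile normalization, and ranged from 0 to 5 with an array or a batch left out. Apart from quantile normalization, the shares of all probe sets called in these fits were not taken. The number called between probe sets of a gene, 1 after each stimulus, was 0 after LPS without the replicate block, after quantile normalization and without dim probe sets, and 0 after CD40L without dim probe sets. With a batch left out it ranged from 0 to 1 after CD40L and was 0 after LPS. Counts of 0 in CD40L against LPS stayed 0. With a gene read from whichever of its probe sets changed most, in place of the brightest, there were 6 in place of 3 SR-related proteins after CD40L and 3 in place of 1 after LPS, 8 in place of 4 higher hnRNP relatives after LPS, and 2 in place of 1 gene of import and decay after LPS. Such a choice favours calls in any gene with several probe sets. The share of all genes called when read this way was not taken. Median centring, AFFX probe sets kept and the robust trend left each count of calls within 1.5 times. The causes were not tested. Of the members, 20 lay below the median level, where 0.146% of all probe sets were called higher after CD40L.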
